A study of Mus musculus with 18 samples.

Results

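The genes described here encode 9 enzymes of the sterol branch, the route from farnesyl pyrophosphate to cholesterol. They were picked by name in the deposited count table of 55487 genes, and all 9 were found and passed the filter on low counts in the fit used here. In pathway order they are Fdft1 (squalene synthase, which commits farnesyl pyrophosphate to sterols), Sqle (squalene epoxidase), Lss (lanosterol synthase, which closes the rings), Cyp51 (lanosterol demethylase), Msmo1, Nsdhl and Hsd17b7 (an oxidase, a dehydrogenase and a reductase that act together to remove methyl groups from the sterol), Sc5d (a desaturase) and Dhcr7 (a reductase whose step can yield cholesterol itself).

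Farnesyl pyrophosphate stands at a fork. One arm leads through squalene to cholesterol, and on another farnesyltransferase attaches the farnesyl group to proteins such as Ras. The brain makes its own cholesterol, because plasma lipoproteins do not cross the blood-brain barrier, and in adults much of it comes from glial cells. The genes of the branch are known as common targets of SREBP-2, a transcription factor released when sterols in the endoplasmic reticulum are low.

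Messenger RNA labelled as frontal cortex had been sequenced from 18 mice aged 9 to 10 months, 6 of each genotype (WT, APP/PS1 and APP/PS1/FTnKO, the last called knockout mice below), each time 3 females and 3 males. APP/PS1 mice carry the mutant human transgenes that give the line its name and are a model of amyloid deposition. Knockout mice carry these transgenes as well, and in addition homozygous floxed alleles of Fntb, the gene of the farnesyltransferase beta subunit (FT f/f), and a Cre driven by the CaMKIIα promoter, which is active after birth in forebrain neurons, so that other cells keep the gene. By the study's methods all WT and APP/PS1 mice were littermates with the floxed alleles and no Cre, but the deposited record describes the WT mice as C57BL/6J, and their background is thus not settled. No group had Cre and APP/PS1 with an intact Fntb, so an effect of Cre and an effect of the deletion cannot be told apart. In tissue RNA, likewise, fewer cells of a type and less RNA per cell cannot be told apart.

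Total counts lay between 15925432 and 21030935 per mouse. The RNA integrity number ranged from 8.5 to 8.8 for WT, from 7.7 to 8.7 for APP/PS1 and from 7.6 to 8.7 for knockout samples. The targeted gene, Fntb, had 7.84 to 14.7 CPM (CPM being the count scaled to a common, normalized library size) in knockout mice, 14.2 to 32.1 in APP/PS1 and 14.1 to 32.2 in 5 WT mice. Its log2 fold change in knockout against APP/PS1 mice, -0.77 (SE 0.26), did not pass the test (FDR = 0.251, edgeR). Counts were made over the whole gene, and which of them come from the deleted part was not examined.

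WT mouse 19622 was kept apart by the rules chosen for these genes. The study likewise left out 1 WT mouse as an outlier, which its methods do not name. The markers of 19622 go against the tissue given in its label. The summed level of 5 cerebellar marker genes was 1991 CPM in this library and 4.70 to 11.6 CPM in the other 17 mice, while 5 markers of the cerebral cortex summed to 5.39 CPM there, with 2 of the 5 at 0, and to 198 to 386 CPM elsewhere. Camk2a, a kinase gene of excitatory forebrain neurons, had 132 CPM in 19622 and 2297 to 4371 CPM in the others. Among the 9 enzymes, 19622 lay below all 5 other WT mice for Fdft1, Sqle, Lss, Msmo1 and Nsdhl, within their range for Cyp51, Hsd17b7 and Dhcr7, and above it for Sc5d. Fdft1 differed most, with 60.3 CPM against 79.3 to 102 CPM, 0.67 times the mean of the other WT mice. The values below rest on the other 17 mice, and calls of the enzymes between genotypes are also given with all 18 where they differ.

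The enzymes together took 0.0452 to 0.0626% of the counts of a mouse, with 353 to 2345 counts per gene and mouse. Per kilobase of merged exon, Fdft1 had the highest level in every group, at 21.3 ± 1.84 CPM per kb in WT (SD, n = 5), 26.6 ± 1.93 in APP/PS1 and 21.8 ± 1.08 in knockout mice (SD, n = 6). In each genotype its lowest mouse stood above the highest mouse of every other member. Sc5d followed in WT mice with 15.6 ± 0.98 CPM per kb, and its range overlapped that of Cyp51 (14.0 ± 2.51), which overlapped that of Msmo1 (12.8 ± 1.19). Sqle (9.82 ± 1.31 CPM per kb) overlapped both Msmo1 above it and Nsdhl below it (7.97 ± 0.63). Nsdhl stood apart from Dhcr7 (6.33 ± 0.28) in each genotype, and Dhcr7 from Lss (5.02 ± 0.18) in WT mice. Hsd17b7 was lowest, at 4.74 ± 0.35 CPM per kb, and overlapped Lss. The other genotypes had the same order of means except that Msmo1 preceded Cyp51, a pair whose ranges overlapped in all 3 genotypes. The order of the levels per kb was not that of the steps, since Lss, which acts soon after Fdft1, was among the lowest. This place of Lss rests on its length, 10787 bases of merged exon, against 2853 to 6144 for the other members. In CPM without this scaling Lss had 54.1 in WT mice, beside Sqle (54.5) and above Dhcr7 (36.8), Hsd17b7 (24.2) and Nsdhl (22.7).

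On GRCm38 the genes lie on different chromosomes: Fdft1 (ENSMUSG00000021273) on 14, Sqle (ENSMUSG00000022351) on 15 from 59315077 to 59331192, Lss (ENSMUSG00000033105) on 10 from 76531588 to 76557138, Cyp51 (ENSMUSG00000001467) on 5 from 4081145 to 4104746, Msmo1 (ENSMUSG00000031604) on 8 from 64718139 to 64733792, Nsdhl (ENSMUSG00000031349) on X from 72918557 to 72958514, Hsd17b7 (ENSMUSG00000026675) on 1 from 169949535 to 169969241, Sc5d (ENSMUSG00000032018) on 9 from 42251595 to 42264256 and Dhcr7 (ENSMUSG00000058454) on 7 from 143823145 to 143848410. A RefSeq table of promoters on GRCm38.p6 held 7 of the 9, namely Lss, Cyp51, Msmo1, Nsdhl, Hsd17b7, Sc5d and Dhcr7. The 250 bases before the annotated start are shown for Nsdhl (chrX:72918271-72918520, plus strand) and Msmo1 (chr8:64733579-64733828, minus strand), which passed a test between genotypes below, and for Lss (chr10:76531355-76531604, plus strand), the member that differed least between knockout and APP/PS1 mice. Each is written 5′ to 3′ on the strand of the gene, and capitals mark a CCAAT box or a GC box read on either strand. The starts are those of the RefSeq table, and some differ from the gene positions given above. Most of the window of Msmo1 and the last bases of that of Lss lie within those positions, not before them.
Nsdhl: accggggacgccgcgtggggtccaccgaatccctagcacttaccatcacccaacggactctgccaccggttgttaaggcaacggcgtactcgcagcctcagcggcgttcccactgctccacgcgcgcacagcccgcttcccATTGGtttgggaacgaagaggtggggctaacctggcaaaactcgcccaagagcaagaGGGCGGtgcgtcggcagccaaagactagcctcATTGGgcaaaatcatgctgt
Msmo1: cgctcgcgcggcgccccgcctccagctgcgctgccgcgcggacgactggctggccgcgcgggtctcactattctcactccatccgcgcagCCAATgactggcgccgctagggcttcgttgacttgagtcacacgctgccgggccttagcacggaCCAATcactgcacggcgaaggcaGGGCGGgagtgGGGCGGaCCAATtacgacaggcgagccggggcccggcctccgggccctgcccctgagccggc
Lss: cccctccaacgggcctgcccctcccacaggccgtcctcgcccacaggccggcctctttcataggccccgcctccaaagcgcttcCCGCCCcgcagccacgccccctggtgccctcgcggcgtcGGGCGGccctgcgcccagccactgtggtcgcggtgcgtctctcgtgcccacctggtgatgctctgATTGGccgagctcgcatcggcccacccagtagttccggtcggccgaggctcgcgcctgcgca
A CCAAT box (CCAAT, or its reverse complement) was found in 7 of the 9 windows of these genes, which is 1 or more window for each gene and 1 of the 3 of Dhcr7, and in 33.8% of all 32851 windows of the table. Msmo1 held 3 on the strand of the gene, Nsdhl held 2 and Lss held 1 on the opposite strand. A GC box (GGGCGG, or its reverse complement) was found in 8 of the 9 windows, against 32.7% of all windows. Marked letters of one box did not overlap those of the other. An E-box (CACGTG) was found in Hsd17b7, Sc5d and 1 of the 3 windows of Dhcr7, 3 of the 9 windows, against 6.02% of all windows. The letters TCACNCCAC, a form of the sterol regulatory element that SREBP-2 binds, were found on either strand in 0 of the 9 windows of these genes and in 1.05% of all windows. This says only that these letters are not in these 250 bases, and no binding was measured.

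APP/PS1 and WT mice were compared to see how the branch stood in the amyloid model before any deletion. All 9 enzymes had a higher mean in APP/PS1 mice, where 49.4% of all 17414 tested genes did, and their median log2 fold change was 0.22 against -0.0023 over all tested genes. Fdft1 and Nsdhl rose, the former by 0.32 (SE 0.06, FDR = 0.0114) and the latter by 0.35 (SE 0.06, FDR = 0.00664) on the log2 scale (quasi-likelihood test of edgeR). These are 2 of 9 genes, beside 1.32% of all tested genes called higher. DESeq2 called Msmo1 as well (FDR = 0.0263), 3 of 9 genes beside 1.78% of all genes.

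Nsdhl had 20.9, 20.9, 23.0, 23.9 and 24.9 CPM in the 5 WT mice and 26.6 to 31.5 CPM (median 29.0) in the 6 APP/PS1 mice. Fdft1 had 79.3, 88.3, 90.0, 91.6 and 101.1 CPM in WT mice and 101.3 to 123.9 CPM (median 111) in APP/PS1 mice. Neither gene overlapped between the genotypes, but for Fdft1 the highest WT mouse, 19718, and the lowest APP/PS1 mouse, 16975, all but met, and with RLE in place of TMM normalization they overlapped. These were 2 of 9 genes, against 1.71% of all tested genes that lay higher without overlap. Mutations of NSDHL are known in people to disturb the skin, the limbs or the brain.

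The other members lay higher by less or with more spread. Msmo1 had 69.8, 77.0, 77.0, 80.6 and 90.0 CPM in WT and 81.7 to 100.4 CPM (median 94.9) in APP/PS1 mice (log2 fold change 0.26, SE 0.07, FDR = 0.0720, edgeR), and the overlap came from WT mouse 19718 and APP/PS1 mouse 19619. Sqle (0.28, SE 0.09, FDR = 0.168) and Lss (0.22, SE 0.09, FDR = 0.261) were among the 5 of 9 genes with an unadjusted p under 0.05 in edgeR, against 7.91% of all tested genes in this direction. Lss had the smallest spread of the 9 in WT mice relative to its mean (coefficient of variation 3.5%), 51.8 to 56.7 CPM. In APP/PS1 mice it ranged from 51.4 to 70.6 CPM, with mouse 19619 below every WT mouse and the other 5 above them. Cyp51, Hsd17b7, Sc5d and Dhcr7 differed by log2 fold changes of 0.06 to 0.12 with FDRs of 0.445 to 0.838 (edgeR), and their 95% confidence intervals reached from -0.18 to 0.32.

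**Figure D1:**
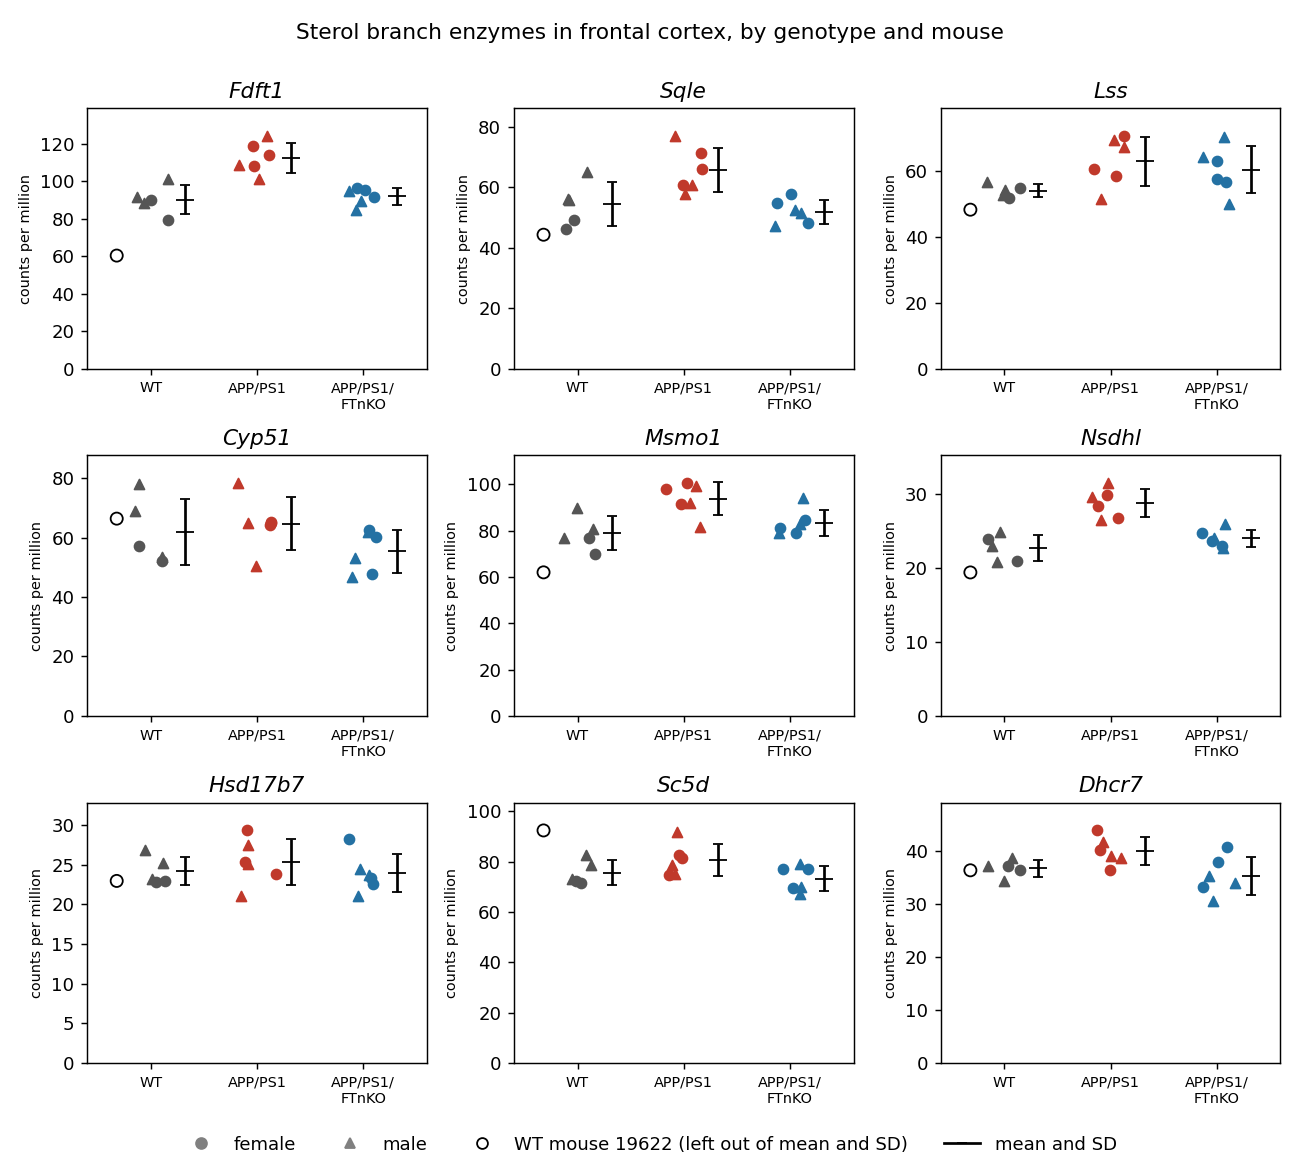
Level of the 9 enzymes in CPM (y axis, from 0) for each mouse by genotype (x axis), circles for females and triangles for males, with mean and SD beside them. The open circle is WT mouse 19622, left out of the means. For Fdft1 and Nsdhl all APP/PS1 mice lie above the other 5 WT and all 6 knockout mice.

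The study's main question, the deletion of Fntb in neurons of APP/PS1 mice, was addressed by comparing knockout with APP/PS1 mice. All 9 enzymes had a lower mean in knockout mice, where 50.5% of all tested genes did, and their median log2 fold change was -0.18 against -0.0016 over all tested genes. Fdft1 alone fell in edgeR's quasi-likelihood test (log2 fold change -0.29, SE 0.06, 95% CI -0.41 to -0.16, FDR = 0.0471), 1 of 9 genes beside 0.144% of all tested genes called lower. DESeq2 called Fdft1, Sqle and Nsdhl lower (FDR = 0.00213, 0.0206 and 0.00940), 3 of 9 genes beside 0.738% of all genes. An unadjusted p under 0.05 in edgeR was reached by 6 of the 9 genes and by 5.69% of all tested genes in this direction.

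Fdft1 had 84.6 to 96.5 CPM (median 93.2) in the 6 knockout mice, all below the lowest APP/PS1 mouse and all within the range of the WT mice. Nsdhl had 22.8 to 26.0 CPM (median 23.9), with the highest knockout mouse just under the lowest APP/PS1 mouse at 26.6 CPM (log2 fold change -0.26, SE 0.06, FDR = 0.0738, edgeR). These were the 2 of 9 genes whose groups did not overlap, against 0.373% of all tested genes lower in this way. Sqle, which adds oxygen to squalene, had the lowest log2 fold change of the 9, -0.34 (SE 0.08, FDR = 0.101, edgeR). It had 47.3 to 57.8 CPM (median 52.1) in knockout and 57.7 to 76.9 CPM (median 63.6) in APP/PS1 mice, and knockout mouse 19722 and APP/PS1 mouse 19619 were the only pair that overlapped.

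The remaining members differed by less. Cyp51 (log2 fold change -0.22, SE 0.11), Dhcr7 (-0.18, SE 0.06), Msmo1 (-0.17, SE 0.06) and Sc5d (-0.14, SE 0.06) had FDRs of 0.255 to 0.472 in edgeR. Hsd17b7 (-0.08, 95% CI -0.25 to 0.09) and Lss (-0.06, 95% CI -0.23 to 0.11) differed least, and a difference of either sign lies within their intervals. The spread of Lss in knockout mice, 60.3 ± 7.12 CPM (SD, n = 6), was close to that in APP/PS1 mice, 63.0 ± 7.43 CPM (SD, n = 6), and larger than that in WT mice, 54.1 ± 1.89 CPM (SD, n = 5).

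The call of Fdft1 was close to the threshold. It was lost in 14 of the 17 fits that leave out 1 mouse, and held without APP/PS1 mouse 16975, WT mouse 19718 or WT mouse 19053, with FDRs of 0.0227 to 0.106 and log2 fold changes of -0.32 to -0.26 over the 17 fits (edgeR). With WT mouse 19622 in the fit the log2 fold change of Fdft1 remained -0.29, with an SE of 0.09 and an FDR of 0.585 in edgeR, and 0 of 9 genes were called by edgeR, beside 0.0116% of all tested genes in either direction, or by DESeq2, beside 0.179%. In APP/PS1 against WT mice with 19622 in the fit, Fdft1 had a log2 fold change of 0.41 and Nsdhl one of 0.38, both still called (FDR = 0.0333 and 0.00414, edgeR). In APP/PS1 against WT mice Nsdhl was called in 17 of 17 such fits and Fdft1 in 16, the exception being that without WT mouse 19053, the lowest for Fdft1 (FDR = 0.0661, edgeR).

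**Figure D2:**
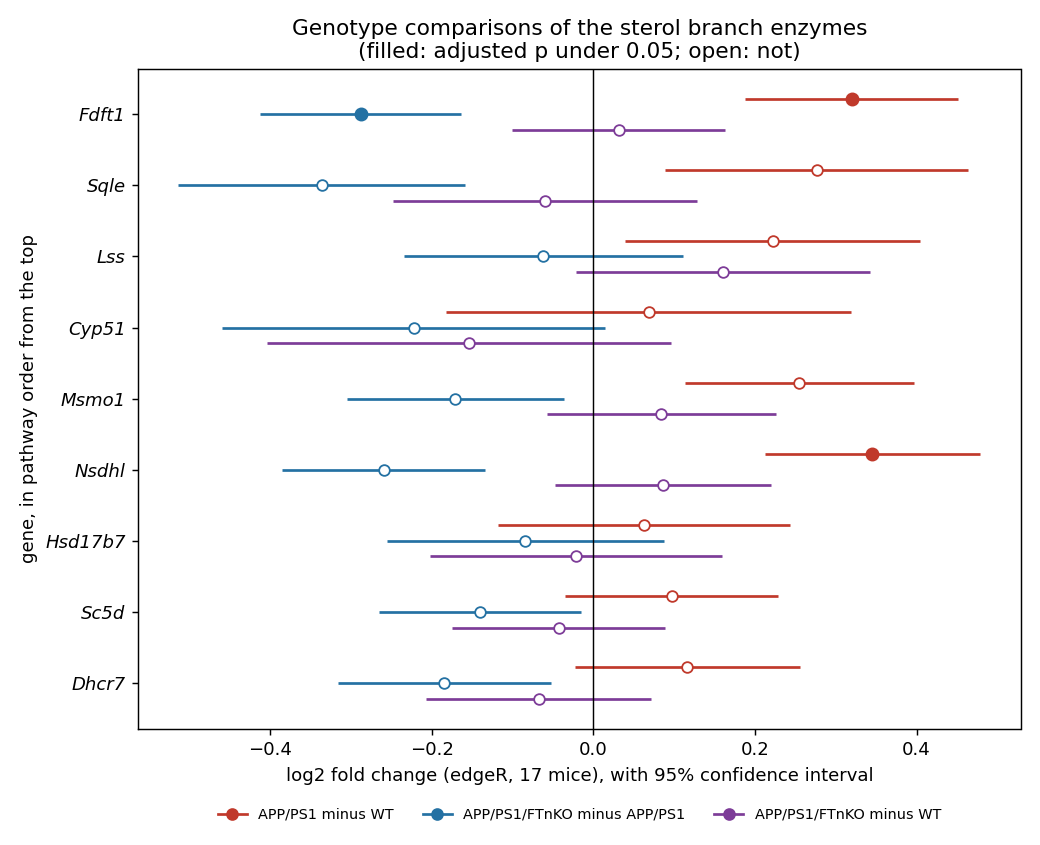
Log2 fold changes (x axis) with 95% confidence intervals of the 9 enzymes in pathway order (y axis) from edgeR's fit of 17 mice, red for APP/PS1 minus WT, blue for knockout minus APP/PS1 and purple for knockout minus WT. Filled points passed an adjusted p of 0.05. Red points lie above 0 and blue points below, and purple points lie between -0.15 and 0.16.

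Knockout and WT mice were compared too, and this comparison shares its mice with those above. The mean was higher for 4 and lower for 5 of the 9 genes, and the median log2 fold change was -0.02. Of the 9 genes 0 were called by edgeR, beside 3.87% of all tested genes in either direction, 0 by DESeq2, beside 7.65%, and 0 had an unadjusted p under 0.05 in edgeR. The groups overlapped for each of the 9, whereas 5.6% of all tested genes did not overlap. Log2 fold changes ran from -0.15 for Cyp51 (95% CI -0.40 to 0.10) to 0.16 for Lss (95% CI -0.02 to 0.34). For Fdft1 it was 0.03 (95% CI -0.10 to 0.16) and for Nsdhl 0.09 (95% CI -0.05 to 0.22). Since all 3 comparisons use the same mice, a gene with high values in APP/PS1 mice stands higher against WT and lower in the knockout comparison through those same values.

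Markers of other cell types were set beside these comparisons, in which edgeR called 1.5% of all tested genes in either direction in APP/PS1 against WT mice, 0.327% in knockout against APP/PS1 mice and 3.87% in knockout against WT mice. The 5 microglial markers, among them Csf1r, Cx3cr1, C1qa and Aif1, had higher means in APP/PS1 than WT mice, with 4 called by edgeR. Their means were lower in knockout than APP/PS1 mice, with 0 called and 3 under an unadjusted p of 0.05. Their summed level was 283 to 313 CPM in 5 WT mice, 391 to 704 in APP/PS1 and 309 to 535 in knockout mice. The 6 astrocyte markers had higher means in APP/PS1 than WT mice, with Gfap called, and 5 of the 6 had lower means in knockout than APP/PS1 mice, with 0 called and 1, Aqp4, under an unadjusted p of 0.05 (log2 fold change -0.31, FDR = 0.269, edgeR). They summed to 4031 to 4855 CPM in WT mice, 4294 to 6041 CPM in APP/PS1 mice and 4280 to 5570 CPM in knockout mice. The 6 oligodendrocyte markers, 0 called in these comparisons, summed to 3756 to 5652, 3384 to 6953 and 4720 to 7543 CPM in the same order. The 3 markers of oligodendrocyte precursors all had higher means in APP/PS1 than WT mice (median log2 fold change 0.10) and lower means in knockout than APP/PS1 mice (median -0.10), 0 called in either, and summed to 105 to 136, 104 to 142 and 102 to 143 CPM. The 3 endothelial markers, 0 called, had medians of 0.02 and -0.01 on the log2 scale in these comparisons. The 6 neuronal markers summed to 7892 to 10856, 7769 to 10572 and 6643 to 8699 CPM. Of them 5 had lower means in knockout than APP/PS1 mice, with 0 called and 2 under an unadjusted p of 0.05. These 2 were Camk2a (log2 fold change -0.42, SE 0.13, FDR = 0.196) and Slc17a7 (-0.38, SE 0.11, FDR = 0.177, edgeR). Of all tested genes 11.5% had an unadjusted p under 0.05 in either direction in this comparison. Against WT mice all 6 neuronal markers had lower means in knockout mice (median log2 fold change -0.25), with Slc17a7 called (-0.46, FDR = 0.0396, edgeR), and all 5 microglial markers had higher means, with 2 called. Each of these markers was detected in each genotype, and the part of these cell types in the results on the enzymes was not tested.

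RNA quality differed between mice as given above. With the RNA integrity number as a covariate Fdft1 (log2 fold change -0.31, FDR = 0.0124) and Sqle (-0.36, FDR = 0.0416) were called lower in knockout than APP/PS1 mice by edgeR, and in APP/PS1 against WT mice Fdft1 was called (0.38, FDR = 0.0105) and Nsdhl was not (0.31, FDR = 0.0737). With this covariate 1.5% of all tested genes were called in either direction in the former comparison, against 0.327% without it, and 0.482% in the latter, against 1.5%.

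Exons of 3 of the enzymes overlap those of a gene on the opposite strand in the GRCm38 annotation, and the sources used here do not give the strand setting of the counting. Fdft1 (chromosome 14, 63145150 to 63179578, minus strand) shares 774 of its 4227 exonic bases with Ctsb, the gene of the lysosomal protease cathepsin B, which is named here after its values were seen. Ctsb ranged from 539 to 608 CPM in WT mice, from 593 to 786 CPM in APP/PS1 mice and from 612 to 769 CPM in knockout mice. It rose in APP/PS1 against WT mice (log2 fold change 0.32, SE 0.06, FDR = 0.0139, edgeR), and its log2 fold change in knockout against APP/PS1 mice was -0.05 (SE 0.06, FDR = 0.821). Its part in the level of Fdft1 was not tested. Cyp51 shares 166 bases with Akap9, likewise named after its values were seen (log2 fold changes -0.11 and -0.0055 in these comparisons), and Lss shares 381 bases with an antisense transcript. Sqle, Msmo1, Nsdhl, Hsd17b7, Sc5d and Dhcr7 had no such overlap.

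Sex was tested because each genotype held both. Of the 9 genes 0 were called between females and males by edgeR, beside 0.0689% of all tested genes, 0 by DESeq2, beside 0.15%, and 0 had an unadjusted p under 0.05 in edgeR. Their log2 fold changes, female minus male, ran from -0.05 to 0.06, and that of Nsdhl, which lies on the X chromosome, was -0.03 (95% CI -0.14 to 0.07). A difference between the sexes in the effect of the knockout was called for 0 of the 9 genes by edgeR, beside 0% of all tested genes, and for 0 by DESeq2, beside 0.00302%. Unadjusted, 0 of the 9 had a p under 0.05 in edgeR, where 578 of all tested genes did. The interaction terms ran from -0.15 to 0.15 on the log2 scale with SEs of 0.11 to 0.22, for each gene larger than its SEs in the genotype comparisons.

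Within a genotype some mice were high or low in many of the enzymes. The mean z-score over the 9 genes ran from -1.04 to 0.41 among the 5 WT mice (median -0.47), from -0.12 to 1.67 among APP/PS1 mice (median 0.62) and from -1.02 to 0.10 among knockout mice (median -0.41), so the groups overlapped. APP/PS1 mouse 19744, a male, was the highest of its genotype in Fdft1, Sqle, Cyp51, Nsdhl and Sc5d. APP/PS1 mouse 19619, also a male, was the lowest in Sqle, Lss, Msmo1, Nsdhl and Hsd17b7. WT mouse 19718 was the highest of the 5 WT mice in 7 of the 9 genes and 19053 the lowest in 5.

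**Figure D3:**
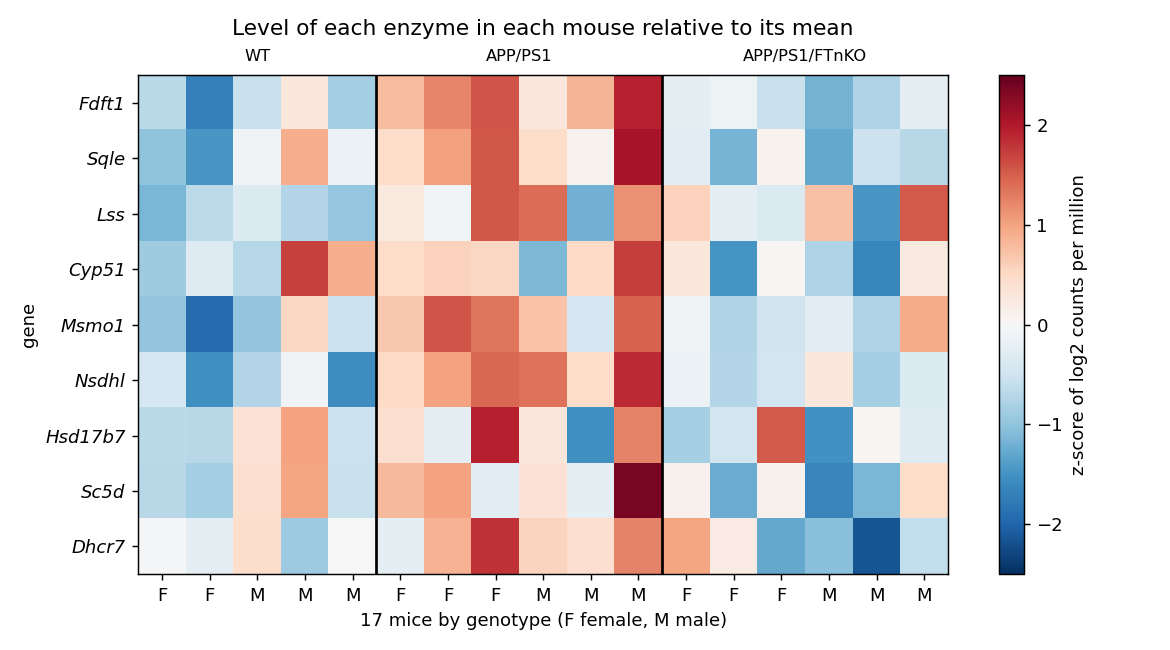
Level of the 9 enzymes (rows) in the 17 mice (columns, by genotype, F female and M male) as z-scores of log2 CPM over the 17 mice, red above and blue below the mean of the gene. The mean of a column is highest in APP/PS1 mouse 19744 (1.67) and lowest in a WT mouse (-1.04).

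With the means of genotype and sex subtracted, the levels of the enzymes were correlated over the 17 mice. Of the 36 pairs of genes 35 had a positive Pearson correlation, from -0.06 to 0.80 with a median of 0.49, and 12 pairs had an adjusted p under 0.05 (permutation test, 100000 resamples, Benjamini-Hochberg over the 36 pairs). With Spearman's rho the median was 0.46 and 8 pairs passed. The permutations made no allowance for the means subtracted beforehand, so p-values of the pairs, here and below, tend to be too small. The share of passing pairs among other genes was not computed. All values of a mouse come from a single library, and the labels give no batch. Sqle and Hsd17b7 were the closest pair (r = 0.80, permutation p = 1e-04, adjusted p = 0.0036, and rho = 0.74, permutation p = 0.00098, adjusted p = 0.0176), and r was 0.75 without the 2 mice farthest from the median of Sqle. Fdft1 and Sqle, which act one after the other, came next (r = 0.78, permutation p = 0.00023, adjusted p = 0.00414, and rho = 0.76, permutation p = 0.00066, adjusted p = 0.0176), and r was 0.67 without the 2 mice farthest from the median of Fdft1.

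Sqle and Msmo1 each passed with 5 of their 8 partners, Fdft1, Cyp51 and Sc5d with 4, and Nsdhl and Hsd17b7 with 1. Lss and Dhcr7 passed with 0 of 8, and the correlation between them was 0.53 (permutation p = 0.0278, adjusted p = 0.0667, and rho = 0.53, permutation p = 0.0311, adjusted p = 0.0932). With the RNA integrity number subtracted as well, 14 pairs passed, and Lss and Dhcr7 were among them (r = 0.58, permutation p = 0.0138, adjusted p = 0.0365, and rho = 0.69, permutation p = 0.00283, adjusted p = 0.0146). Without the 2 farthest mice in each pair the median r was 0.34, and 34 of 36 pairs were positive. With all 18 mice the median r was 0.33 and 9 pairs passed, including Lss with Nsdhl and with Msmo1 (adjusted p = 0.0385 and 0.0488, permutation test of r). By rho Lss passed with Nsdhl (0.62, adjusted p = 0.035) and not with Msmo1 (0.45, adjusted p = 0.164, permutation test).

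The genes whose levels over the 17 mice were most like the mean z-score of the 9, out of 17405 others, included Stard4 (r = 0.91), which carries cholesterol between membranes, Idh1 (r = 0.85), an NADP-dependent isocitrate dehydrogenase, Cryl1 (r = 0.85) and Hmgcs1 (r = 0.84), which makes HMG-CoA in the mevalonate pathway. These correlations hold the differences between genotypes as well as those between mice. With the means of genotype and sex subtracted r was 0.83 for Stard4, 0.73 for Idh1, 0.88 for Cryl1 and 0.85 for Hmgcs1. The mice, libraries and scaling are shared, so these values are a description.

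The genes before the fork were set beside the enzymes. The counts of this and the next lists stand beside the shares of all tested genes called by edgeR given with the cell type markers, and beside those with an unadjusted p under 0.05 in either direction, which were 11.5% in knockout against APP/PS1 mice, 14% in APP/PS1 against WT mice and 22.1% in knockout against WT mice. Of 8 genes of the mevalonate pathway up to farnesyl pyrophosphate, 7 had a lower mean in knockout than APP/PS1 mice (median log2 fold change -0.20), 0 called in edgeR and 4 under an unadjusted p of 0.05. Mvd, a decarboxylase, had a log2 fold change of -0.34 (SE 0.12) with FDR = 0.247. In APP/PS1 against WT mice 5 of the 8 had a higher mean (median 0.13, 0 called in edgeR, 2 under an unadjusted p of 0.05), led by Acat2 (0.29, SE 0.07, FDR = 0.0535) and Hmgcs1 (0.20, SE 0.07, FDR = 0.208). In knockout against WT mice Idi1, an isomerase, differed by -0.23 (SE 0.13, FDR = 0.296), and 0 of the 8 were called, with 2 under an unadjusted p of 0.05 (edgeR).

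Of 4 further genes of the sterol branch (Lbr, Tm7sf2 and Ebp among them), 3 had a lower mean in knockout than APP/PS1 mice and 4 a higher mean in APP/PS1 than WT mice, with 0 called by edgeR and 3 and 1 under an unadjusted p of 0.05. Tm7sf2, a sterol reductase that acts next to Cyp51, differed by 0.21 on the log2 scale in knockout against APP/PS1 mice (SE 0.06, FDR = 0.218) and by 0.23 in APP/PS1 against WT mice (SE 0.07, FDR = 0.128), and it rose in knockout against WT mice (0.44, SE 0.07, FDR = 0.00279, edgeR).

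Among 10 genes of sterol sensing and uptake, 6 had a lower mean in knockout than APP/PS1 mice (median log2 fold change -0.05, 0 called in edgeR, 4 under an unadjusted p of 0.05). Stard4 differed by -0.38 (SE 0.11, FDR = 0.155). In APP/PS1 against WT mice 6 of the 10 had a higher mean (median 0.03, 0 called, 2 under an unadjusted p of 0.05), and Stard4 differed by 0.33 (SE 0.11, FDR = 0.199).

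The 6 genes that use farnesyl pyrophosphate for other products, or act on those products (Fnta, Fntb, Ggps1, Dhdds, Nus1 and Cox10), had a lower mean for 3 and a higher mean for 3 in knockout against APP/PS1 mice (median -0.02 on the log2 scale), 0 called in edgeR and 1, Fntb, under an unadjusted p of 0.05. Nus1, whose protein helps to make dolichol, had the next largest difference, -0.10 (SE 0.05). In APP/PS1 against WT mice the median was -0.02, with 0 called by edgeR and 0 under an unadjusted p of 0.05.

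**Figure D4:**
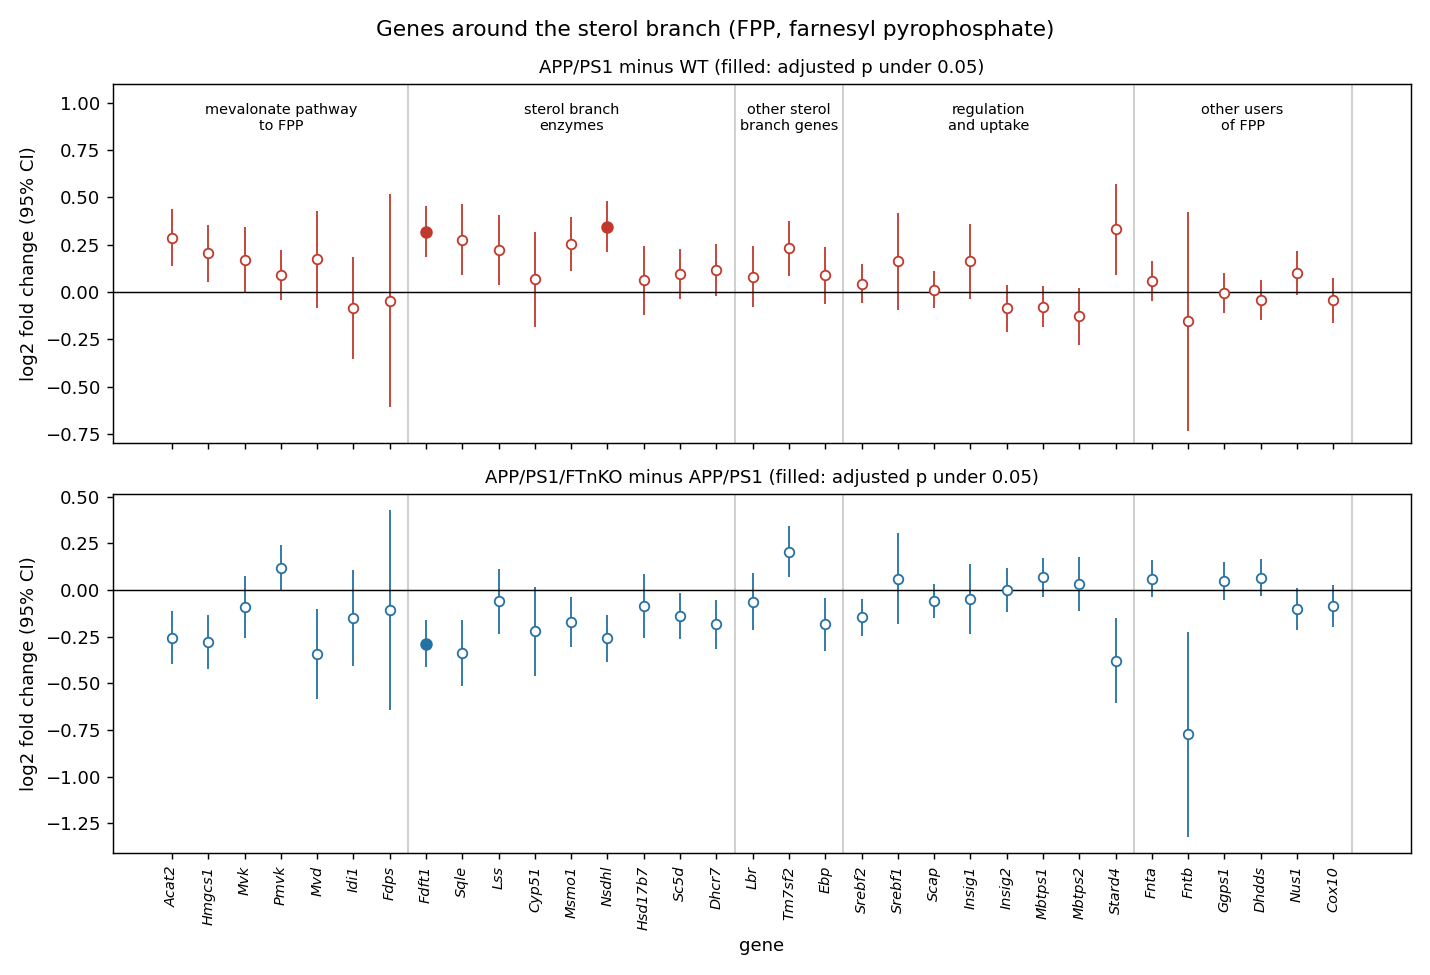
Log2 fold changes (y axis) with 95% confidence intervals from edgeR's fit of 17 mice for the genes reported here before, in and around the sterol branch (x axis), APP/PS1 minus WT above and knockout minus APP/PS1 below. Filled points passed an adjusted p of 0.05, which in these 5 lists were Fdft1 and Nsdhl above and Fdft1 below.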

How the data were processed

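The samples were RNA of 18 individual mice, labelled as frontal cortex and made into stranded libraries. The markers of WT mouse 19622 go against that label. Per the study's methods and the submitters' processing notes, reads were checked with FastQC 0.11.7, trimmed with Trimmomatic 0.33, aligned with HISAT2 2.1.0 to GRCm38 and assigned to genes by featureCounts. The deposited table gives raw counts, 1 column per mouse, of which 0 were left unused. The strand and multi-mapping settings of featureCounts are not given in the sources.

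Counts of 17 mice (WT mouse 19622 apart) were fitted with edgeR 4.0.16 under R 4.3.3, using TMM factors, a minimum count of 10 (filterByExpr), 1 fit for the 3 genotypes with sex as a term, and the quasi-likelihood test. P-values were adjusted by Benjamini-Hochberg over all 17414 tested genes and called FDR, with a threshold of 0.05. Levels are CPM after TMM, and CPM per kb uses merged exons of a GRCm38 annotation that held 99.5% of the genes. Correlations used log2 CPM with a prior count of 2 and 100000 permutations of the mice. The p-values measure the spread between mice, counting error included.

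Alternatives were all 18 mice, DESeq2 1.42.0, limma-voom (limma 3.58.1), RLE factors or none, no filter, a minimum count of 50, no sex term, the RNA integrity number as a covariate, a robust spread, only the genotypes compared, and leaving out each mouse. DESeq2 with all 18 mice was added after the data had been seen. The scripts were tested on simulated data.

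The 9 enzymes, the lists and the rules were chosen with earlier results of these data known. The genes named are the 9, Fntb and Camk2a as checks, in each pathway list the called genes and the 2 largest changes per comparison, and the 5 genes most like the mean z-score of the 9. Some genes that these rules name are not reported here, although the counts and medians of the lists include them.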

Additional observations from a re-analysis of the deposited data

Results flagged for a closer look

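A mouse far from the others of its genotype was looked for in 36 sets of values (each of the 9 genes in the 3 genotypes, and in WT again with mouse 19622), and 1 was found, where chance gives about 1 in 20. Msmo1 in knockout mouse 19720 had 94.0 CPM, against 78.9 to 84.6 CPM in the other 5 mice of that genotype. WT mouse 19622, which enters no comparison of the 17 mice, had 92.4 CPM of Sc5d, above the 71.5 to 83.1 CPM of the other 5 WT mice and 1.22 times their mean.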

How the results depend on the processing

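In knockout against APP/PS1 mice, edgeR called 1 of the 9 enzymes lower. The number was 3 with DESeq2 (Fdft1, Sqle and Nsdhl), 2 without a filter and 2 with the RNA integrity number as a covariate (Fdft1 and Sqle in both), and 0 with all 18 mice, with DESeq2 on all 18 mice, with limma-voom (FDR of Fdft1 0.0537), with RLE factors (FDR of Fdft1 0.0507) and with only the 2 genotypes compared. Of all genes tested in each fit, 0.327% were called in either direction in the fit reported, 1.38% with DESeq2 and 0.314% without a filter. The share was 1.5% with the RNA integrity number, 0.0116% with all 18 mice and 0.179% with DESeq2 on all 18. It was 0.27% with limma-voom, 0.281% with RLE factors and 0.0297% with only the 2 genotypes. The number of the 9 was 0 to 1 with each mouse left out, and the calls over all genes in those fits are not given here. In APP/PS1 against WT mice 2 were called, beside 1.5% of all tested genes in either direction. The number was 1 with the RNA integrity number (Fdft1), beside 0.482%. It was 3 with DESeq2, with DESeq2 on all 18 mice and without a filter (Msmo1 added each time), beside 2.14%, 2.06% and 1.36%. With each mouse left out it was 1 to 3, and the calls over all genes in those fits are not given here. Genes whose groups did not overlap in that comparison numbered 1 with RLE factors (Nsdhl), beside 1.73% of all tested genes higher without overlap, and 1 to 4 with each mouse left out, beside 1.71 to 3.32%. They were 4 without APP/PS1 mouse 19619, beside 2.6%, or WT mouse 19718, beside 2.21%. In knockout against WT mice the number was 0 to 1 with each mouse left out, with Lss not overlapping without knockout mouse 18973, where 9.35% of all tested genes did not overlap in either direction. The causes were not tested, except that fewer mice or genes enter some of these fits. In knockout against WT mice some log2 fold changes that were not called changed sign: Hsd17b7 was 0.0048 with the RNA integrity number and -0.0704 to 0.024 with each mouse left out, Fdft1 -0.0176 to 0.0783 and Sqle -0.118 to 0.00765 with each mouse left out. In the other genotype comparisons the sign of each of the 9 was the same in all 28 alternatives. Levels of the 9 moved by less than their SD between mice under each scaling tried. No paired analysis was possible because the labels give each mouse a number of its own and tie no mouse to one of another genotype by litter or batch, and the replicate numbers 1 to 6 used here only name the mice.

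The precision is set by 5 or 6 mice per genotype. WT mouse 19622 alone moved the FDR of Fdft1 in knockout against APP/PS1 mice from 0.0471 to 0.585 (edgeR).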
